A study of Mus musculus with 6 samples.

Results

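The 8 genes Slc17a7, Slc17a6, Slc1a1, Glud1, Got1, Got2, Slc38a1 and Slc38a2 encode proteins that load glutamate into vesicles, take it up and interconvert it, and they were followed in dentate granule cells of transgenic and control mice. They were represented by 18 probe sets, each annotated with 1 of these symbols and no other, among 45037 probe sets and 18193 gene symbols on the arrays. RNA was taken from isolated hippocampal cells that the descriptions call DGCs, dentate granule cells as the study is known, and measured on 6 mouse expression arrays. Of these, 3 came from 2 transgenic mice that overexpress HuD, the mRNA-stabilising neuronal protein encoded by Elavl4, and 3 from 2 control mice. In both groups mouse 1 gave 1 array and mouse 2 gave 2. The titles tag 3 arrays with re-LCM, which the labels do not spell out: those of transgenic mouse 1, transgenic mouse 2 array 1 and control mouse 1. The 2 arrays that the descriptions assign to control mouse 2 are numbered 1 and 2 in their titles, which may name separate animals. From what is known of this mouse line the transgene is driven in forebrain neurons by a CaMKII alpha promoter. The labels give no strain or age.

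Glutamate released at excitatory synapses is packed into vesicles by the vesicular glutamate transporters VGLUT1 (Slc17a7) and VGLUT2 (Slc17a6), which use the membrane potential set up by a proton pump. VGLUT1 is the form of most cortical and hippocampal principal neurons, granule cells included, and VGLUT2 that of many thalamic and other subcortical neurons. Neurons take up glutamate again through EAAT3 (Slc1a1), import glutamine, its precursor, through the system A carriers SNAT1 (Slc38a1) and SNAT2 (Slc38a2), and exchange glutamate with the citric acid cycle through glutamate dehydrogenase (Glud1) and the aspartate aminotransferases of the cytosol (Got1) and of mitochondria (Got2).

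Elavl4 itself was not higher in the transgenic arrays: its 3 probe sets had log2 differences of -0.33, -0.15 and -0.73, against the direction of the label, and none was called (limma, adjusted p = 0.993 to 0.997). The brightest read intensities of 79.4, 93.3 and 60.1 on the transgenic and 122, 92.8 and 63.7 on the control arrays (log2 difference, transgenic minus control, -0.33, 95% interval -1.03 to 0.37, limma). Whether these probes match the transgene's transcript was not examined. The arrays are called transgenic and control by their labels throughout. With 2 mice per group the p-values rest on the spread between these mice, which limma draws towards that of all probe sets.

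None of the 8 genes was called between transgenic and control granule cells. Values are linear probe set intensities as the authors scaled them. Before taking log2, values under an intensity of 10.1 (the pooled 25th percentile) were set to that floor, and the 22518 probe sets with a mean log2 value above the median of all were tested with limma on the means of 2 transgenic and 2 control mice. Of the 18 member probe sets 14 passed this filter, from 7 genes, and both Slc17a6 probe sets did not. The call rule was a Benjamini-Hochberg adjusted p under 0.05 over all 22518, which 0 of the 14 met (limma, adjusted p = 0.993 to 0.999), as did 0% of all probe sets tested. At an unadjusted p under 0.05 there were 995 of the 22518 and 1 of the 14. Of the 14, 6 had a positive and 8 a negative log2 difference (transgenic minus control) with a median of -0.03, while the median over all probe sets tested was -0.0036. For 13 of the 14 the difference was under 0.5 log2 units in size, as for 88.9% of all tested.

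**Figure D1:**
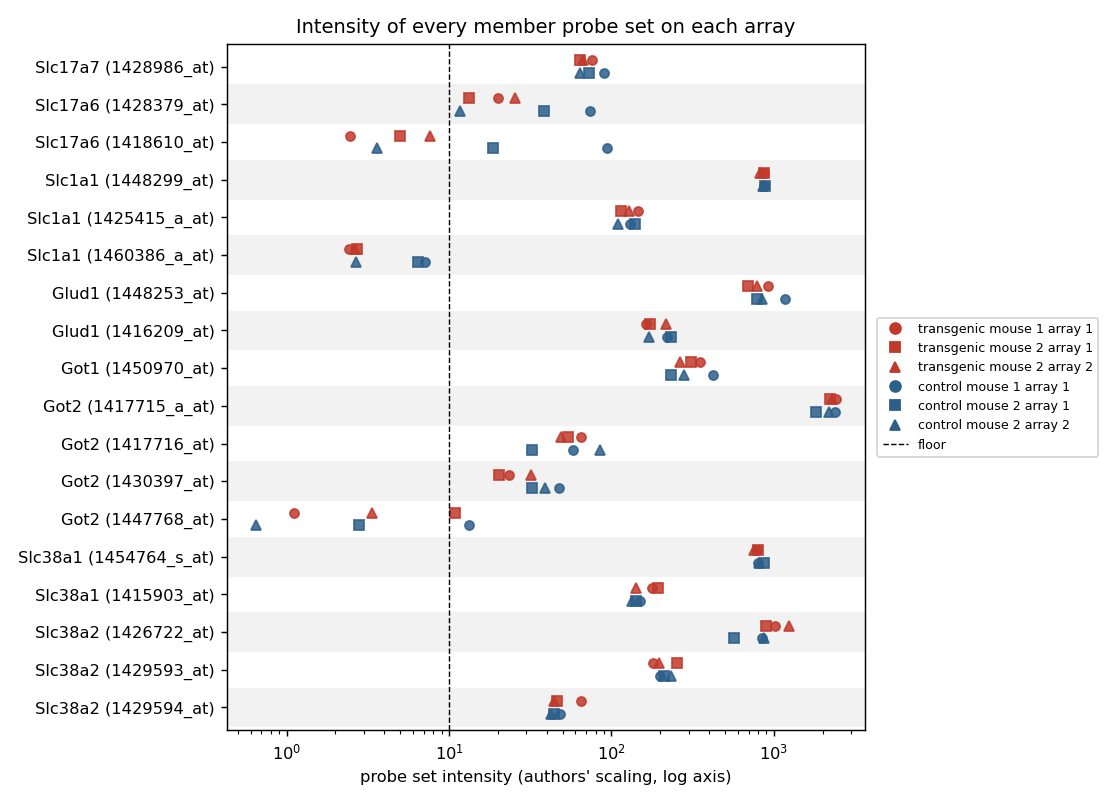
Intensity (log axis) of the 18 probe sets of the 8 genes on each array, with transgenic arrays in red above control arrays in blue and 1 symbol shape per mouse and array. The dashed line is the floor at an intensity of 10.1; the brightest Slc1a1 probe set reads 828 to 879 on all 6 arrays, while the Slc17a6 probe sets are highest on the array of control mouse 1.

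Slc17a7 was measured by 1 probe set (1428986_at). Its intensity was 76.0, 64.0 and 66.8 on the transgenic arrays (mouse 1, mouse 2 array 1 and mouse 2 array 2, the order used throughout) and 89.7, 73.2 and 64.2 on the control arrays. The groups overlapped, with mouse 1 of each group the highest of its 3 arrays. The mean log2 level was 6.14 ± 0.15 in transgenic and 6.29 ± 0.27 in control mice (SD, n = 2 mice each), a difference of -0.15 (95% interval -0.71 to 0.41). Without control mouse 1 the difference was 0.04. The interval therefore spans from 0.61 to 1.32 times the control level.

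Slc17a6 was dim and uneven. Its brighter probe set (1428379_at) read 20.1, 13.2 and 25.5 on the transgenic arrays, against 73.6, 38.7 and 11.7 on the control arrays. The second (1418610_at) read 93.9 on the array of control mouse 1 and 18.8 on control mouse 2 array 1, and was under the floor on control mouse 2 array 2 and on all 3 transgenic arrays. Both probe sets thus put the array of control mouse 1 first and control mouse 2 array 1 next. The 2 arrays of control mouse 2 differed from each other by 1.72 log2 units at the brighter probe set, more than the difference between groups of -1.04. At the second probe set the difference between groups was -1.83, a value that the floor sets on the transgenic side. Without control mouse 1 the differences were -0.15 and -0.45. Within the arrays tagged re-LCM (2 transgenic, 1 control) they were -2.17 and -3.22, and within the others (1 transgenic, 2 control) 0.26 and -0.45. In a fit without the filter the 95% intervals ran from -3.65 to 1.57 and from -5.87 to 2.20 (limma, adjusted p = 0.882 for each).

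The mean levels of the marker lists of other cells were highest on the same array. Taken as the mean over a list's tested genes of the log2 level minus its mean over the 6 arrays, the array of control mouse 1 stood at 0.61 for interneuron markers (7 of 8 genes tested), 0.77 for oligodendrocyte (6 of 8), 0.45 for astrocyte (7 of 8), 0.31 for microglia (6 of 8), 0.38 for vascular (4 of 8) and 0.18 for pyramidal cell markers (6 of 8). Interneuron markers ranged from -0.43 to -0.03 on the transgenic arrays and from -0.20 to 0.61 on the control arrays, and oligodendrocyte markers from -0.65 to 0.02 and from -0.18 to 0.77. Astrocyte markers ranged from -0.24 to 0.04 on the transgenic and from -0.17 to 0.45 on the control arrays, microglia markers from -0.23 to -0.02 and from -0.07 to 0.31, vascular markers from -0.47 to 0.0054 and from -0.17 to 0.38, and pyramidal cell markers from -0.20 to -0.0025 and from -0.08 to 0.18. In each of these 6 lists control mouse 1 had the highest mean level, but single tested genes went otherwise. The interneuron marker Gad1 read 1912, 1882 and 1819 on the transgenic and 1795, 1618 and 1748 on the control arrays. Pvalb was highest on transgenic mouse 2 array 1 (190) and Sst on control mouse 2 array 1 (62.0). The pyramidal cell marker Fibcd1 (20.5) and the vascular Kdr (26.7) were lowest on the array of control mouse 1. The astrocyte marker Glul was highest on transgenic mouse 2 array 2 (2298). Of 6 markers listed for mossy cells, excitatory neurons of the hilus, 3 passed the filter. Their level ran from -0.58 to 0.29 on the transgenic and from -0.77 to 0.71 on the control arrays. Among them Calb2, which encodes calretinin, read 69.3, 12.0 and 50.5 on the transgenic and 94.5, 66.3 and 21.6 on the control arrays. Ociad2 and Glipr1 were also highest on the array of control mouse 1, at 202 and 124. The mossy cell markers under the filter were not. Drd2 read 28.5, 18.6 and 37.0 on the transgenic and 13.9, 12.0 and 31.1 on the control arrays. Calcrl and Csf2rb2 were highest on control mouse 2 array 2, at 50.2 and 31.6. Granule cell markers, all 8 tested and among them Prox1, Dsp and Calb1, varied less. Their mean level ran from -0.09 to -0.03 on the transgenic and from 0.04 to 0.08 on the control arrays. These means did not overlap, but 0 of the 8 genes had groups without overlap, against 8.15% of all probe sets tested. The differences were positive for 3 genes and negative for 5, from -0.42 (Tdo2) to 0.11 (Stxbp6). Of all markers listed only the vascular gene Pecam1 was under the floor on all 6 arrays. The part of other cells in the Slc17a6 values was not tested. In RNA from pooled cells, fewer cells of a type and less RNA per cell cannot be told apart.

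**Figure D2:**
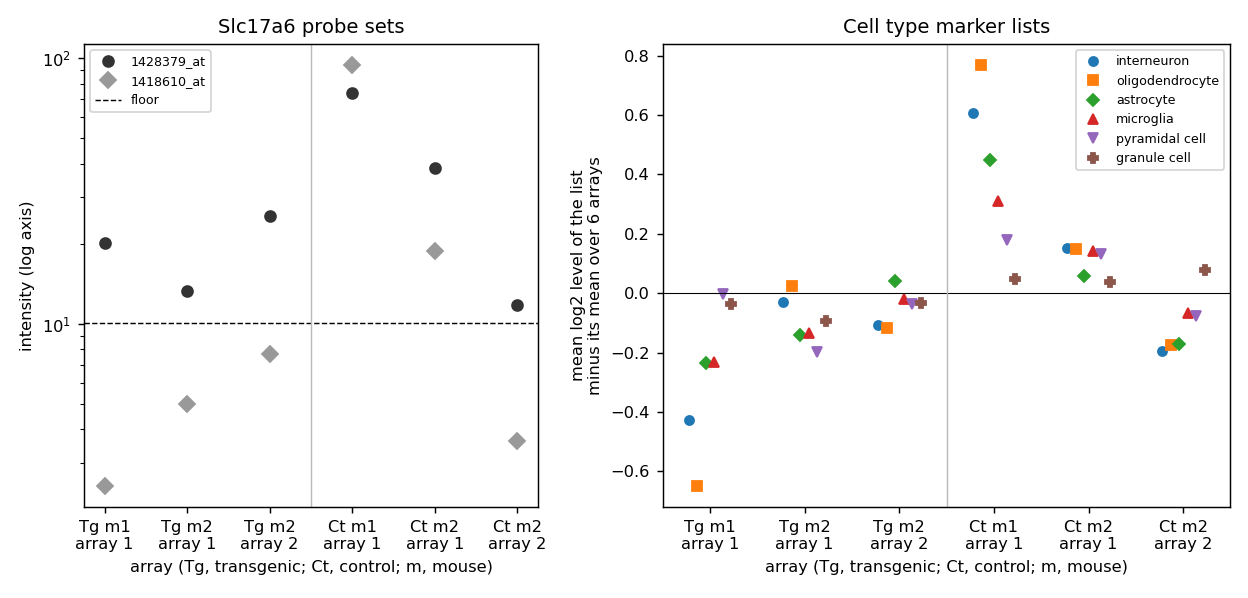
Left, intensity (log axis) of the 2 Slc17a6 probe sets on each array, with the floor dashed; right, mean log2 level of 6 marker lists on each array relative to the mean of 6 arrays. Transgenic arrays stand left of the grey line and control arrays right of it; both Slc17a6 probe sets and all lists but that of granule cells are highest on the array of control mouse 1.

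The promoter sequences of both vesicular transporters are given because these are the loading genes and their values differ in evenness between arrays. They are the 250 bases before the start site from RefSeq (GRCm38.p6), 5′ to 3′ on the gene's strand, and 7 of the 8 genes matched the table, all but Slc38a1. Slc17a7 lies at chr7:45163671-45163920 and Slc17a6 at chr7:51621580-51621829, both on the plus strand, and for Slc17a6 the first of 2 listed starts was taken. Capitals mark matches, on either strand, to the GC box GGGCGG, the CCAAT box CCAAT, the TATA box TATAAA or the core TGACG of the cyclic AMP response element.
Slc17a7: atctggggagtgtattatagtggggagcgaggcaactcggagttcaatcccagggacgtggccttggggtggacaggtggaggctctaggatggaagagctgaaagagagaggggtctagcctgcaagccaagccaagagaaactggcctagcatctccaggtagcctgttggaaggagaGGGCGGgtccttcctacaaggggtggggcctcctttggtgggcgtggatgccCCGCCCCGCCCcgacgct
Slc17a6: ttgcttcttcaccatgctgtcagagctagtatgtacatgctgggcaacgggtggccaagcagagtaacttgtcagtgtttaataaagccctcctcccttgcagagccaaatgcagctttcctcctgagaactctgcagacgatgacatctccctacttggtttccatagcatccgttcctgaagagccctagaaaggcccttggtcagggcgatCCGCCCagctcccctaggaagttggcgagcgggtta

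The Slc17a7 window holds 3 GC boxes, of which the last 2 overlap, and the Slc17a6 window holds 1. Of 32851 promoter windows of this length 32.7% hold at least 1 GC box, 33.8% a CCAAT box, 12.4% a TATA box and 17.8% the TGACG core, and neither of the windows shown holds any of the last 3. The window of the second listed Slc17a6 start, at chr7:51624387-51624636, holds 1 TGACG core and no GC box in 41.2% GC. The GC content is 61.2% for Slc17a7 and 53.2% for Slc17a6, against a median of 52.4% over all windows. The arrays did not measure these regions.

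Slc1a1, the neuronal glutamate uptake carrier, was the steadiest member. Its brightest probe set (1448299_at) read 873, 876 and 828 on the transgenic arrays and 871, 879 and 862 on the control arrays. All 6 values lay close together and the groups overlapped. The SD over the 6 arrays was 0.03 log2 units, against a median of 0.28 over all probe sets tested, and only 0.0444% of those had a smaller one. The difference was -0.01 (95% interval -0.43 to 0.41), and leaving out a mouse or array kept it between -0.03 and 0.0059. The interval is wide beside these values because limma draws the spread of a probe set towards that of all probe sets. The second probe set (1425415_a_at) read 145, 115 and 129 on the transgenic and 130.2, 139.7 and 111 on the control arrays, a difference of 0.06 (SE 0.18), and the third (1460386_a_at) was under the floor on all 6 arrays.

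Glud1, which releases ammonia from glutamate to feed the citric acid cycle, was measured by 2 probe sets with like differences. The brighter (1448253_at) read 926, 689 and 792 on the transgenic arrays and 1179, 794 and 842 on the control arrays. Control mouse 1 was the highest and the groups overlapped. The difference was -0.25 (95% interval -0.91 to 0.42), and it was 0.02 without control mouse 1. The dimmer (1416209_at) read 162, 172 and 216 on the transgenic and 221, 234 and 169 on the control arrays, a difference of -0.25 (-0.73 to 0.24) that stayed between -0.37 and -0.12 over all leave-outs. Here array 2 of each mouse 2 went against the other arrays of its group.

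Got1, the cytosolic aspartate aminotransferase of the malate-aspartate shuttle, had 1 probe set (1450970_at). It read 351, 308 and 266 on the transgenic arrays and 422, 231 and 281 on the control arrays. The control arrays enclosed the transgenic ones. The difference was -0.05 (95% interval -0.83 to 0.73), with 0.31 without control mouse 1 and -0.41 without control mouse 2.

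Got2, the mitochondrial partner of Got1, had 4 probe sets that disagreed. The brightest (1417715_a_at) read 2409, 2218 and 2283 on the transgenic and 2367, 1824 and 2194 on the control arrays. These overlapped, with control mouse 2 array 1 the lowest, and the difference was 0.10 (95% interval -0.37 to 0.57). The second (1417716_at) read 64.5, 54.2 and 48.9 on the transgenic and 57.9, 32.6 and 85.4 on the control arrays, a difference of 0.06 in which the 2 arrays of control mouse 2 lay 1.39 log2 units apart. The third (1430397_at) read 23.4, 20.4 and 32.1 on the transgenic and 47.9, 32.7 and 39.1 on the control arrays. Each transgenic array lay below each control array, by little between transgenic mouse 2 array 2 and control mouse 2 array 1. The mean log2 level was 4.61 in transgenic and 5.37 in control mice. The probe set passed the filter at 4.92 only through the control mice, where it was higher, so its difference of -0.76 (SE 0.21, 95% interval -1.31 to -0.20; limma, adjusted p = 0.993) is a description and supports no change. It is the one of the 14 counted above at an unadjusted p under 0.05, as 4.42% of all probe sets tested were. At a floor at the pooled median all 3 transgenic values fall under the floor, the probe set is not tested and no member has an unadjusted p under 0.05 (limma). It is also not tested with 1 probe set per gene, and over the other alternatives its difference ran from -0.97 to -0.50. The fourth probe set (1447768_at) was above the floor on transgenic mouse 2 array 1 and on the array of control mouse 1, at 10.9 and 13.3.

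**Figure D3:**
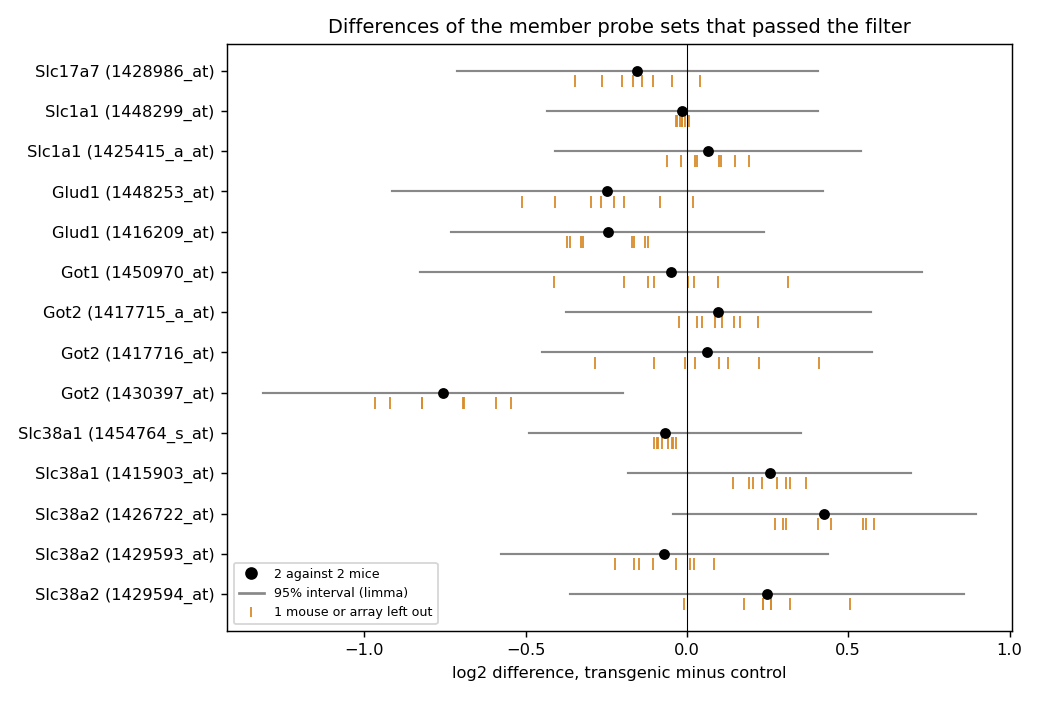
Log2 difference, transgenic minus control, of the 14 member probe sets that passed the filter: black points from 2 against 2 mice, grey bars the 95% intervals of the limma fit, orange ticks the difference with 1 mouse or array left out. All intervals but that of Got2 1430397_at (-1.31 to -0.20) include 0, and 9 of the 14 rows have orange ticks on both sides of it.

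Slc38a2, the glutamine carrier SNAT2, had the largest positive difference. Its brightest probe set (1426722_at) read 1022, 889 and 1238 on the transgenic arrays, against 842, 569 and 874 on the control arrays. Each transgenic array lay above each control array, though transgenic mouse 2 array 1 and control mouse 2 array 2 were nearly level. Of all probe sets tested 3.83% had no overlap in this direction and 4.32% in the other, 8.15% in all, and among the 14 member probe sets 1 did so in each direction, this one and Got2 1430397_at. The mean log2 level was 10.02 ± 0.03 in transgenic and 9.59 ± 0.18 in control mice (SD, n = 2 mice each), a difference of 0.43 (SE 0.18, 95% interval -0.04 to 0.90) that was not called (limma, adjusted p = 0.993). The 2 arrays of 1 mouse differed by more than that: array 1 minus array 2 was -0.48 in transgenic mouse 2 and -0.62 in control mouse 2. The difference stayed positive over all alternatives, from 0.27 to 0.58, and was 0.18 within the arrays tagged re-LCM and 0.81 within the others.

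The other Slc38a2 probe sets gave smaller values. The second (1429593_at) read 181, 254 and 196 on the transgenic and 199.5, 212 and 234 on the control arrays, a difference of -0.07 (SE 0.20). The third (1429594_at) read 64.8, 46.2 and 44.5 on the transgenic and 47.9, 44.2 and 42.7 on the control arrays. The array of transgenic mouse 1 was the one high value there, and the difference of 0.25 (SE 0.24) was -0.0086 without that mouse. The promoter window of Slc38a2, given as that of the member with the largest positive difference, lies at chr15:96699729-96699978 (GRCm38.p6) on the minus strand, with the same capitals as above, and holds 1 GC box and 1 TGACG core in 72.0% GC.
Slc38a2: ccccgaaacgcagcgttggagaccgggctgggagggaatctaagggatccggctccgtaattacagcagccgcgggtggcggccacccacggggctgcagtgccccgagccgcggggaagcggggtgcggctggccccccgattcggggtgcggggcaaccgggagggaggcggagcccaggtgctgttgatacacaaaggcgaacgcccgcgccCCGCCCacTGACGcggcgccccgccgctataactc

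Slc38a1, the glutamine carrier SNAT1, had 2 probe sets of opposite sign. The brighter (1454764_s_at) read 785, 799 and 750.0 on the transgenic and 798, 869 and 808 on the control arrays. It varied little, with an SD over the 6 arrays of 0.07 log2 units that 1.16% of all probe sets tested fell below, and the difference was -0.07 (95% interval -0.49 to 0.35). The suffix s_at marks probes that can match transcripts of more than 1 gene. The dimmer (1415903_at) read 178, 194 and 142 on the transgenic and 150.5, 142 and 133 on the control arrays. The first 2 transgenic values stood above all control values and the last among them, and the difference was 0.26 (SE 0.17, -0.18 to 0.70), between 0.14 and 0.37 over leave-outs.

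The tagged and the untagged arrays gave differences of the same sign at 7 of the 14 member probe sets and of opposite sign at 7, each from 3 arrays and with no test. They ran from -1.13 to 0.31 within the tagged and from -0.18 to 0.81 within the untagged arrays. The one control array with the tag is that of mouse 1. Glud1 1448253_at gave -0.56 within the tagged and -0.04 within the untagged arrays, Got2 1430397_at -1.13 and -0.15, Slc17a7 -0.36 and -0.04, and Got1 -0.36 and 0.06. Slc1a1 1448299_at gave 0.0061 and -0.07 and Slc38a1 1415903_at 0.31 and 0.04.

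Genes of like pattern were sought for the 2 members whose brightest probe set varied most over the 6 arrays, Slc17a6 and Slc38a2. The measure was the root mean square difference of log2 values, each centred on its own mean. Candidates were tested probe sets with 1 gene symbol that were above the floor on all arrays. Their SD over the arrays also had to be at least 0.5 times that of the member. For Slc38a2 the closest of 13565 probe sets were D030056L22Rik (0.04 log2 units) and Ehbp1l1 (0.07). Ehbp1l1 read 75.9, 67.9 and 83.0 on the transgenic and 57.5, 40.2 and 59.1 on the control arrays, which is the order seen for Slc38a2. For Slc17a6 the closest of 2454 were Mrpl15 (0.35) and Stc2 (0.36), both highest on the array of control mouse 1. With 6 arrays and this many probe sets, close matches are found for many patterns.

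The other genes of the pathway gave no call either. Of 23 further carriers of glutamate, glutamine and their partners 14 were tested, of which 5 had a positive and 9 a negative difference, with 0 called (limma), 1 at an unadjusted p under 0.05 and a median of -0.07. Slc1a4, the neutral amino acid carrier ASCT1, had the smallest p of these. It read 101, 88.7 and 99.3 on the transgenic arrays and 142, 178 and 113 on the control arrays, with no overlap. Its difference was -0.54 (SE 0.16, limma, adjusted p = 0.993) and -0.59 at its second tested probe set. Slc3a2, the heavy chain of several amino acid exchangers, read 269.6, 269.2 and 289.6 on the transgenic and 204.7, 230.4 and 226 on the control arrays, with no overlap and a difference of 0.34 (SE 0.17). Slc17a5 read 132, 136 and 119 on the transgenic and 145, 157 and 154 on the control arrays. It also had no overlap, with a difference of -0.22 (SE 0.17). Of the 14 carriers tested 1 had no overlap with the transgenic arrays higher and 2 with them lower, against 8.15% of all probe sets tested. Slc38a6 gave 0.49 (SE 0.25) and Slc25a18, a mitochondrial glutamate carrier, -0.27 (SE 0.17).

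The glial uptake carriers Slc1a2 (GLT-1) and Slc1a3 (GLAST) gave -0.21 (SE 0.20) and -0.55 (SE 0.38) at their brightest probe sets, with -0.37 at the second of Slc1a2 and from -0.72 to -0.52 over the 3 of Slc1a3. Slc1a3 read 326 on the array of transgenic mouse 1 and 592 to 785 on the other 5, and without that mouse its difference was -0.02. The brightest carrier, Slc38a10, gave -0.02 at its brightest probe set and from -0.33 to 1.83 over the 6 tested, so its probe sets disagreed. Slc38a3, the glutamine carrier of astrocytes, did not pass the filter, with 7.22 to 31.4 over the 6 arrays, and Slc17a8, the third vesicular transporter, was not analysed here.

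Of 33 further enzymes 26 were tested, 14 with a positive and 12 with a negative difference, 0 called or at an unadjusted p under 0.05 (limma) and a median of 0.03. The smallest p belonged to Idh2, the mitochondrial NADP-dependent isocitrate dehydrogenase (-0.41, SE 0.17), whose second tested probe set gave 0.02. Next came Gpt, an alanine aminotransferase (0.29, SE 0.18), Gclc, a subunit of the first enzyme of glutathione synthesis (0.23, SE 0.17, with 0.0012 at its second probe set), and Oat, ornithine aminotransferase (0.20, SE 0.17). Glul, the glutamine synthetase of astrocytes, had a difference of 0.12 (SE 0.21) at the brighter tested probe set and of -0.56 at the dimmer. The bright malate dehydrogenases Mdh1 and Mdh2, which work with Got1 and Got2 in the malate-aspartate shuttle, gave 0.11 (SE 0.21) and 0.01 (SE 0.17), and Idh3b gave 0.10.

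At the brightest tested probe set of each gene, differences ran from -0.39 to 0.21 for the vesicular proton pump that powers loading and the chloride channel. Other probe sets of the same genes went beyond that range, with -0.58 at one of 3 of Atp6v1e1 and 0.60 at one of 5 of Clcn3. Of 18 listed genes, those of the pump and the chloride channel gene Clcn3, 17 were tested, 12 with a positive and 5 with a negative difference, 0 called or at an unadjusted p under 0.05 (limma) and a median of 0.06. Only Atp6v0d1 of the 17 had no overlap, against 8.15% of all probe sets tested. It read 1389, 1356 and 1427 on the transgenic and 1199.8, 1185 and 1232 on the control arrays. Its arrays agreed closely within each group, but its difference was small, 0.21 (95% interval -0.21 to 0.63). Atp6v0a1, a membrane subunit, gave -0.39 (SE 0.39), and 0.04 at its second probe set, with 89.7 on the array of transgenic mouse 1 and 140.2 to 201 on the other 5 at the brighter. Clcn3 gave -0.16, opposite in sign to the 0.60 above, and Atp6v0b 0.16 with -0.03 at the lowest of its 3. The bright subunits Atp6ap2, Atp6v1d and Atp6v1c1 gave 0.04, 0.03 and 0.08. Over all probe sets tested 49.4% had a positive and 50.6% a negative difference.

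**Figure D4:**
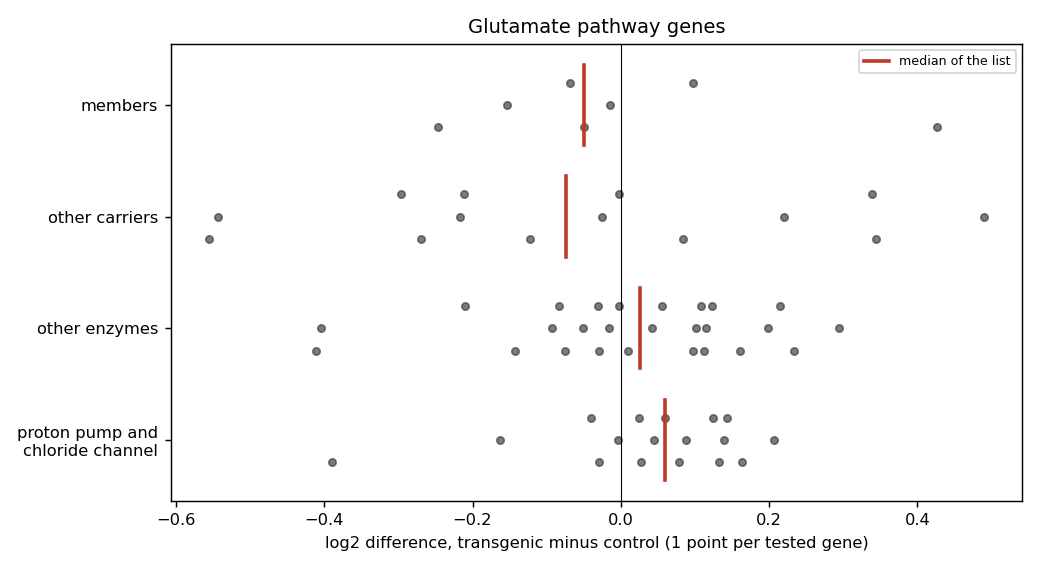
Log2 difference, transgenic minus control, with 1 point per tested gene (its brightest tested probe set) for the members and 3 lists of other pathway genes; red lines are medians. The medians lie at -0.05 for the 7 tested members, -0.07 for 14 carriers, 0.03 for 26 enzymes and 0.06 for 17 genes of the proton pump and chloride channel.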

How the data were processed

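The authors deposited linear probe set intensities, which they scaled so that the 2% trimmed mean is 150.001 on each array; how probes were summarised and background was subtracted is not stated in these sources, and both bear most on dim probe sets. From 45101 probe sets 64 controls were left out. Platform annotation gave 1 symbol to 34945 of the remaining 45037, several to 932 and none to 9160. A floor at the pooled 25th percentile (10.1), log2 and a filter on the mean log2 above 4.92 left 22518 probe sets. Arrays of a mouse were averaged and the groups were set against each other in limma 3.58.1 (lmFit, eBayes, R 4.3.3), with Benjamini-Hochberg adjustment, 2 residual and 2.83 prior degrees of freedom. The fit was tested on simulated arrays. Of 200 probe sets altered on these arrays it recovered 0 at 2-fold, 0 at 4-fold, 159 at 8-fold and 173 at 16-fold. False calls numbered 0, 0, 4 and 2 in the same order. A gene of a list is its brightest tested probe set. Named are all members and fixed partner genes, and from each list those of smallest p (up to 4) and highest mean (up to 3). Members and lists were chosen with earlier results of these data known. The alternatives changed normalization, floor, filter, replicate unit, tag, block, variance model and which mice or arrays entered. Precision is limited by the few mice.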

Additional observations from a re-analysis of the deposited data

How the results depend on the processing

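Over 18 alternatives the count of called probe sets stayed 0 in all but 1, and no member probe set was called in any. With a variance trend and robust variance 2 were called, of Edil3 and E2f5. With limma as reported 995 probe sets had an unadjusted p under 0.05, against 790 to 1667 when 1 mouse was left out, 2679 with the mouse as a random block (estimated correlation -0.53) and 2923 without the filter. With the replicate block (the mouse number as a term) 0 were called and 1085 had an unadjusted p under 0.05; the numbers name no shared animal, and deviations of control mouse 1 and transgenic mouse 1 correlated at 0.02 across probe sets. Of 244 differences of member probe sets under alternatives 223 kept their direction, and 5 of 14 probe sets kept it in all. Got1 turned to 0.023 with 6 arrays as separate samples, 0.085 with the random block, 0.021 without control mouse 2 array 2 and 0.0036 without transgenic mouse 2 array 2. Got2 1417716_at turned to -0.039 with the tag as a term and -0.29 without control mouse 2 array 1, Slc1a1 1425415_a_at to -0.019 without control mouse 2 array 2, and without transgenic mouse 2 array 2 Slc1a1 1448299_at turned to 0.0059 and Slc38a2 1429593_at to 0.023. With 1 mouse left out, ranges crossing 0 were -0.35 to 0.040 for Slc17a7, -0.032 to 0.0035 and -0.063 to 0.19 for Slc1a1 (1448299_at and 1425415_a_at), -0.51 to 0.018 for Glud1 1448253_at, -0.41 to 0.31 for Got1, -0.024 to 0.22 and -0.10 to 0.22 for Got2 (1417715_a_at and 1417716_at), and -0.22 to 0.083 and -0.0086 to 0.51 for Slc38a2 (1429593_at and 1429594_at). Of 54 list medians under alternatives 8 moved by more than the spread between mice. For carriers these were -0.10 with the tag as a term, -0.046 without control mouse 2 array 1, -0.13 without control mouse 2 array 2 and -0.17 without control mouse 2. For enzymes they were 0.078 without control mouse 1, 0.071 without transgenic mouse 1 and 0.072 without transgenic mouse 2, against 0.026 as reported. For the pump it was 0.13 without transgenic mouse 2, against 0.060 as reported. With 1 mouse left out the medians ran from -0.17 to -0.063 for carriers, from 0.030 to 0.078 for enzymes and from 0.017 to 0.13 for the pump. The cause of these shifts was not tested; with 1 mouse left out, the lone mouse is assumed to vary like the others.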
